A study of Mus musculus with 4 samples.

Results

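Papilla and sheath cells of the mouse whisker follicle were compared at passage 3, to find which genes told these mesenchymal cells apart early in culture. Dermal papilla cells are called DPCs and cells of the dermal sheath DSCs. The comparison used 2 of the 4 libraries of the series, 1 of low-passage DPCs and 1 of low-passage DSCs. It covered the 16276 genes whose raw counts averaged 10 or more over these libraries, of 51826 genes in the table. The other 2 libraries were high-passage DPCs and DSCs at passage 9. The cells were grown from vibrissa follicles of EGFP-transgenic C57BL/6J mice a few weeks old, while the labels give the genotype as WT, and all were cultured without a further agent in DMEM with fetal bovine serum. DPCs grew out of papilla spheres freed from the hair bulb with collagenase, and DSCs came from sheath tissue stripped off the shaft after dispase and digested with collagenase. How many animals were pooled into a culture, and whether the passage 9 cells descended from the passage 3 cells, was not given in the sources used here.

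The dermal papilla is a cluster of mesenchymal cells at the base of the follicle that signals to the overlying epithelium through Wnt, BMP and FGF factors and so controls hair growth. The dermal sheath is the connective tissue coat around the follicle, whose cells carry smooth muscle actin, contract around the follicle, and can supply new cells to the papilla. In the whisker follicle, both derive largely from cranial neural crest.

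With 1 library in each group no difference had a replicate check, and no p-value is given. Differences are log2 CPM (counts scaled to library size) of DPCs minus DSCs, so that a positive value is higher in DPCs. A gene was called apart at 4-fold, which is a log2 difference of 2. The range given with a difference is its 95% exact Clopper-Pearson counting interval, which compares these 2 libraries and covers counting error only. The intervals would be too narrow if both mates of each read pair were counted. With halved counts, the interval of Lgr5 was 2.88 to 5.32 rather than 3.19 to 4.87. Total counts were 35340038 in the DPC library and 38780425 in the DSC library at passage 3. A count of 0 allows up to 3 counts, or 0.0823 and 0.0795 CPM in the same order. Genes with 0 counts in 1 library are given as a lower bound against that floor. If both mates of each read pair were counted, the floor would be 6 counts and the bound 0.5 times as large.

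DPCs and DSCs were alike for most genes and at least 4-fold apart for 633. Past 4-fold, 227 of the 16276 genes (1.39%) were higher in DPCs and 406 (2.49%) were higher in DSCs, together 3.89%. The median difference over all genes was 0.01, and 14236 genes (87.5%) lay within 2-fold. Past 16-fold there were 33 genes on the side of DPCs and 64 on the side of DSCs, and past 64-fold 4 and 12. The median among called genes was 2.71 for DPCs and -2.77 for DSCs, or 2.71 and -2.71 with the genes at 0 counts set to their bound.

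Calls were more frequent among genes with few counts. Among 4327 genes with a mean count of 10 to 100, 3.17% were called for DPCs and 5.43% for DSCs, and among 6233 genes with a mean of 1000 or more these shares were 0.481% and 0.866%. The other library had 0 counts in 39 of the 227 genes and in 64 of the 406. The whole counting interval was past 4-fold for 137 and 235 genes. Just inside the threshold, between 2 and 2.1, there were 58 genes, and just outside, between 1.9 and 2, there were 76. Of the genes called for DPCs, 75.8% were protein coding, and of those called for DSCs, 86.7%, against 81.6% of all genes tested.

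**Figure D1:**
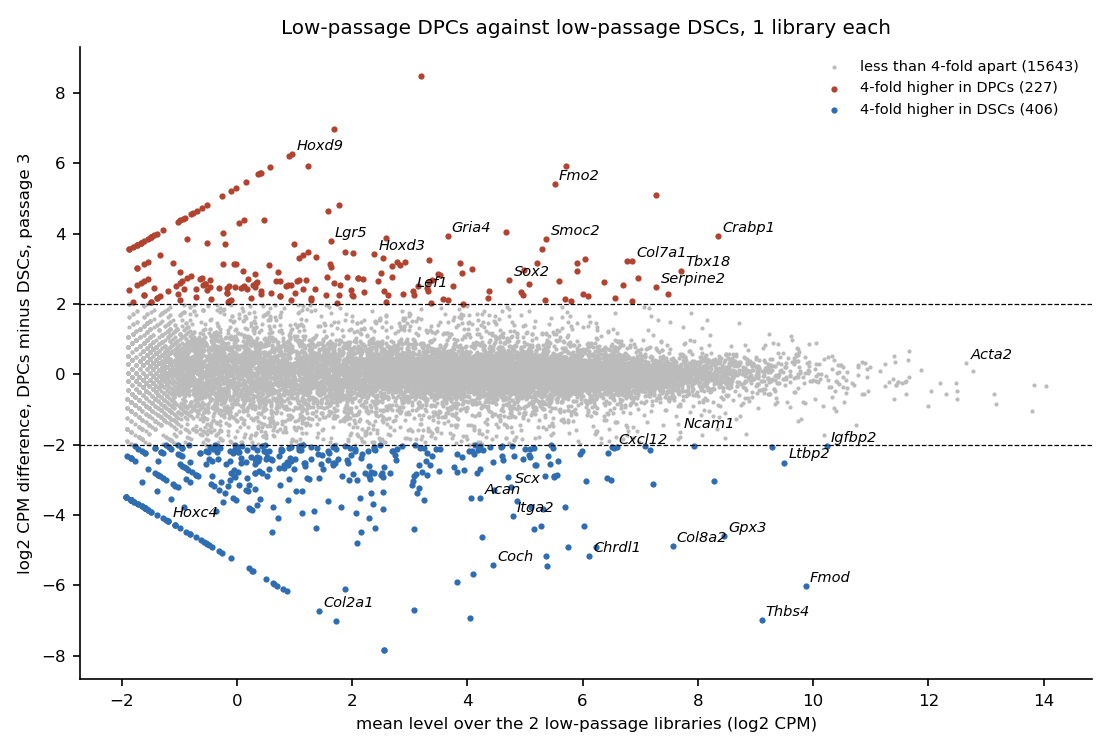
Each point is 1 of the 16276 genes, with its mean level in the 2 low-passage libraries (log2 CPM) on the horizontal axis and its log2 CPM difference, DPCs minus DSCs, on the vertical axis. The 227 genes called for DPCs lie above the upper dashed line, the 406 called for DSCs lie below the lower one, and Thbs4 and Fmod combine a large difference with a high level.

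The strongest papilla gene by level was Crabp1, a cytosolic retinoic acid-binding protein known as a papilla marker (chr9:54764748-54773110, GRCm38). It stood at 615 CPM in low-passage DPCs and 40.2 CPM in low-passage DSCs, a log2 difference of 3.93 (3.86 to 4.01). At passage 9 it stood at 400 CPM in DPCs and 448 CPM in DSCs, so that both high-passage libraries were near the DPC level of passage 3. Per transcript length, its FPKM of 701 in low-passage DPCs was above those of the other genes named here as 4-fold higher in DPCs, of which Ccl2 came next at 171. Tbx18, a T-box transcription factor expressed in the mesenchyme of forming follicles, had 13516 counts in DPCs and 1810 in DSCs, with a difference of 2.95 (2.88 to 3.02).

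Among the 35 tested genes of a list of papilla markers, 7 were called for DPCs and 2 for DSCs, against 1.39% and 2.49% of all genes, and the list's median was 0.07. Scube3, a secreted papilla ligand that promotes hair growth, was at 216 CPM in DPCs and 32.5 CPM in DSCs. Sox2, a transcription factor of the vibrissa papilla, was at 46.0 and 7.13 CPM, a difference of 2.68 (2.50 to 2.88). Both were also 4-fold higher in DPCs at passage 9. Lef1, the DNA-binding partner of beta-catenin, had 508 counts in DPCs and 101 in DSCs, and the transcriptional repressor Prdm1 had 630 and 105. Sostdc1, a secreted antagonist of BMP and Wnt signals, had 61 counts in DPCs and 0 in DSCs, at least 21.05-fold higher.

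Other papilla markers did not separate the cells or went the other way. Corin and Wif1 were at 0 counts in both libraries, and Alpl, whose enzyme alkaline phosphatase is a common stain for the papilla, had 8 counts in DPCs and 23 in DSCs. The R-spondin Rspo4 had 12 and 62 counts and the BMP antagonist Nog 10 and 48, which put both past 4-fold on the side of DSCs. Ncam1, a neural adhesion molecule that the study used as a marker of both cell types, was at 99.9 CPM in DPCs and 312 CPM in DSCs, a difference of -1.64 (-1.69 to -1.59). Versican (Vcan) was at 113 and 140 CPM, and Bmp4 at 57.7 and 157 CPM. The label of the papilla library thus held for Sox2, Crabp1, Tbx18 and Scube3 but not for every marker of the list.

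The contractile genes that mark the sheath in tissue did not mark the DSC library. Acta2, the smooth muscle actin, was at 7191 CPM in DPCs and 5757 CPM in DSCs, a difference of 0.32 (0.31 to 0.33). Of 30 tested sheath and contractile genes, 22 had a positive difference, the median was 0.41, and 4 were called, against 3.89% of all genes. Those called for DPCs were the potassium channel subunit Kcnmb1 at 18.1 and 2.78 CPM and the integrin Itga8 at 188 and 44.4 CPM. Smooth muscle myosin Myh11 was at 79.1 CPM in DPCs and 28.2 CPM in DSCs, and the actin Actg2 at 1070 and 500.4 CPM. The 2 called for DSCs were matrix genes, Acan with 108 and 1300 counts and Abi3bp with 18 and 351. At passage 9 the order of Acta2 was the reverse, at 1842 CPM in DPCs and 4333 CPM in DSCs.

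**Figure D2:**
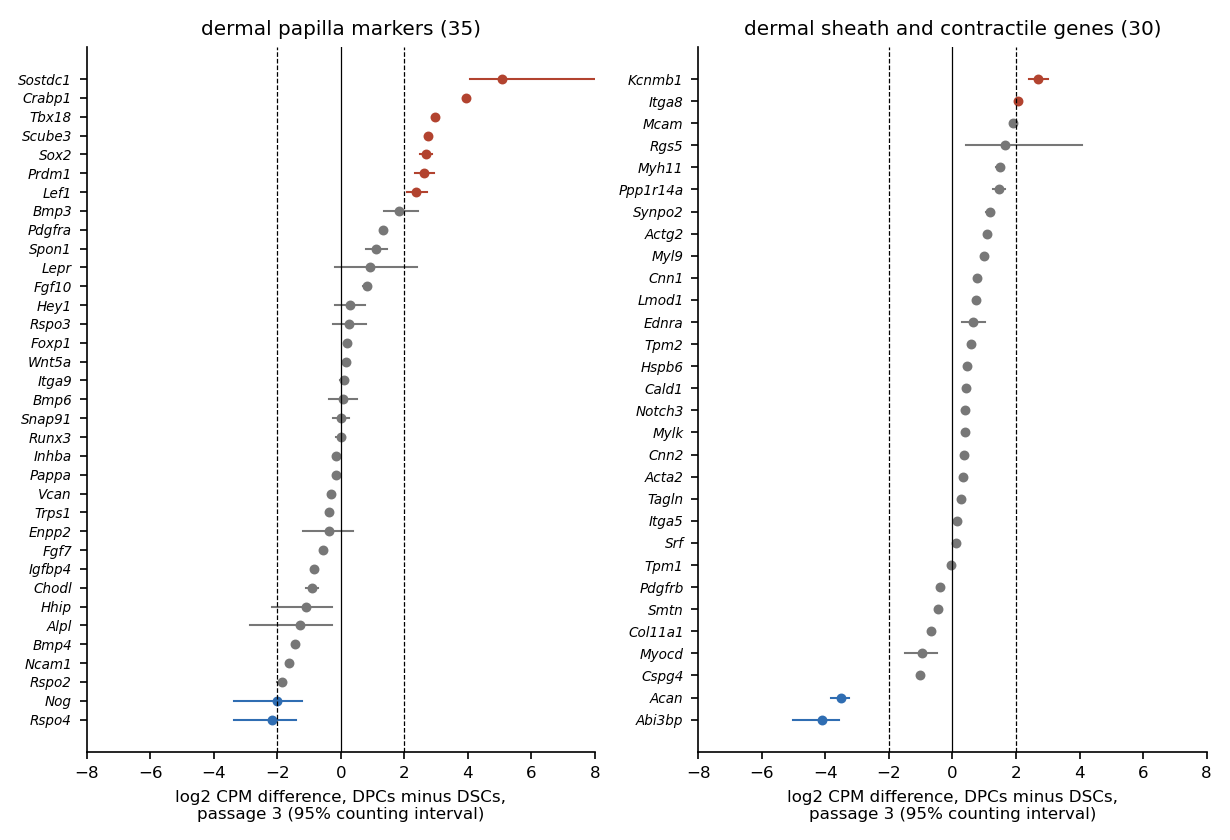
Points give the log2 CPM difference at passage 3, DPCs minus DSCs, of 35 papilla markers (left) and 30 sheath and contractile genes (right), with lines for the 95% counting interval and dashed lines at 4-fold. Red points are called for DPCs and blue points for DSCs, intervals with no upper limit are drawn to the edge, and most contractile genes sit between 0 and 2.

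The matrix genes Fmod, Thbs4 and Comp were far higher in DSCs. Fmod, fibromodulin, a small proteoglycan that binds collagen fibrils (chr1:134037254-134048277), was at 28.5 CPM in DPCs and 1843 CPM in DSCs, a difference of -6.01 (-6.11 to -5.93), which is 64.7-fold. Thbs4, a thrombospondin of tendon and muscle matrix (chr13:92751590-92794818), was at 8.59 CPM in DPCs and 1095 CPM in DSCs, a difference of -6.99 (-7.16 to -6.83), or 127-fold. Comp, the cartilage oligomeric matrix protein and a relative of Thbs4, was at 1.81 and 81.2 CPM. All 3 were again lower in DPCs at passage 9, with differences of -5.10 for Fmod, -5.77 for Thbs4 and -4.97 for Comp.

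A list of 57 tested matricellular and adhesive glycoproteins had 3 members called for DPCs and 12 for DSCs, against 1.39% and 2.49% of all genes, with a median of -0.39. Cilp, a cartilage intermediate layer protein, was at 4.77 CPM in DPCs and 146 CPM in DSCs, and its relative Cilp2 had 0 and 123 counts, at least 39.6-fold higher in DSCs. The matrilin Matn4 had 0 and 61 counts, at least 19.6-fold higher in DSCs. On the side of DPCs were the matricellular protein Smoc2 at 77.5 and 5.30 CPM, the basement membrane protein Egflam at 12.5 and 1.33 CPM, and elastin (Eln) at 120 and 12.3 CPM. Smoc2 and Egflam were again 4-fold higher in DPCs at passage 9, while Eln was past 4-fold in the other direction.

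Among 18 tested osteogenic and chondrogenic genes, 1 was called for DPCs and 8 for DSCs, against 1.39% and 2.49% of all genes, and the median was -1.30. Scx, the transcription factor scleraxis of tendon and ligament progenitors, was at 5.24 CPM in DPCs and 48.6 CPM in DSCs, a difference of -3.20. Col2a1, the collagen of cartilage, had 0 counts in DPCs and 203 in DSCs, at least 65.4-fold higher. Sp7, a transcription factor of osteoblasts, had 3 and 38 counts, a difference of -2.99 (-5.95 to -1.96). The exception was the tendon membrane protein Tnmd, at 10.1 CPM in DPCs and 1.33 CPM in DSCs. Runx2, the main osteoblast transcription factor, had 1821 and 2149 counts, a difference of -0.19. The list was therefore not uniform.

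Collagen genes differed by chain. Of 36 tested, 3 were called for DPCs and 5 for DSCs, against 1.39% and 2.49% of all genes, with a median of -0.49. Col8a2, a chain of the network-forming type VIII collagen, was at 12.3 CPM in DPCs and 365 CPM in DSCs, a difference of -4.88 (-5.03 to -4.75). Col7a1, the anchoring fibril collagen, was at 209 CPM in DPCs and 22.4 CPM in DSCs, and Col27a1, a fibrillar collagen, at 51.5 and 10.8 CPM. Col24a1 was at 2.30 and 16.1 CPM, and Col6a6 had 0 and 87 counts, at least 28.0-fold higher in DSCs. Col6a4 had 26 and 0 counts, at least 8.97-fold higher in DPCs. The abundant chain Col1a2 was below the threshold, at 6570 and 11882 CPM.

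Matrix receptors and processing enzymes were called in both directions. Itga4, the integrin alpha 4 chain that binds fibronectin and VCAM1, was at 198 CPM in DPCs and 21.1 CPM in DSCs, a difference of 3.23 (3.13 to 3.34). Itga2, the collagen-binding alpha 2 chain, was at 3.13 and 52.1 CPM, a difference of -4.04 (-4.34 to -3.79). At passage 9 the Itga2 difference was -5.25, while Itga4 was at 336 CPM in DPCs and 155 CPM in DSCs. Of 25 tested integrin entries, 3 were called for DPCs and 2 for DSCs, against 1.39% and 2.49% of all genes, and 2 of these 5 are entries of Itgam that share 68.7% and 79.1% of their exonic bases with other genes on the same strand. The protease inhibitor Serpine2 was at 264 and 46.9 CPM and Mmp9, a gelatinase, at 3.13 and 0.504 CPM, both higher in DPCs. Mmp13, a collagenase, was at 0.905 CPM in DPCs and 5.09 CPM in DSCs. Adamtsl3, a secreted relative of the ADAMTS proteases, was at 6.15 and 124 CPM.

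**Figure D3:**
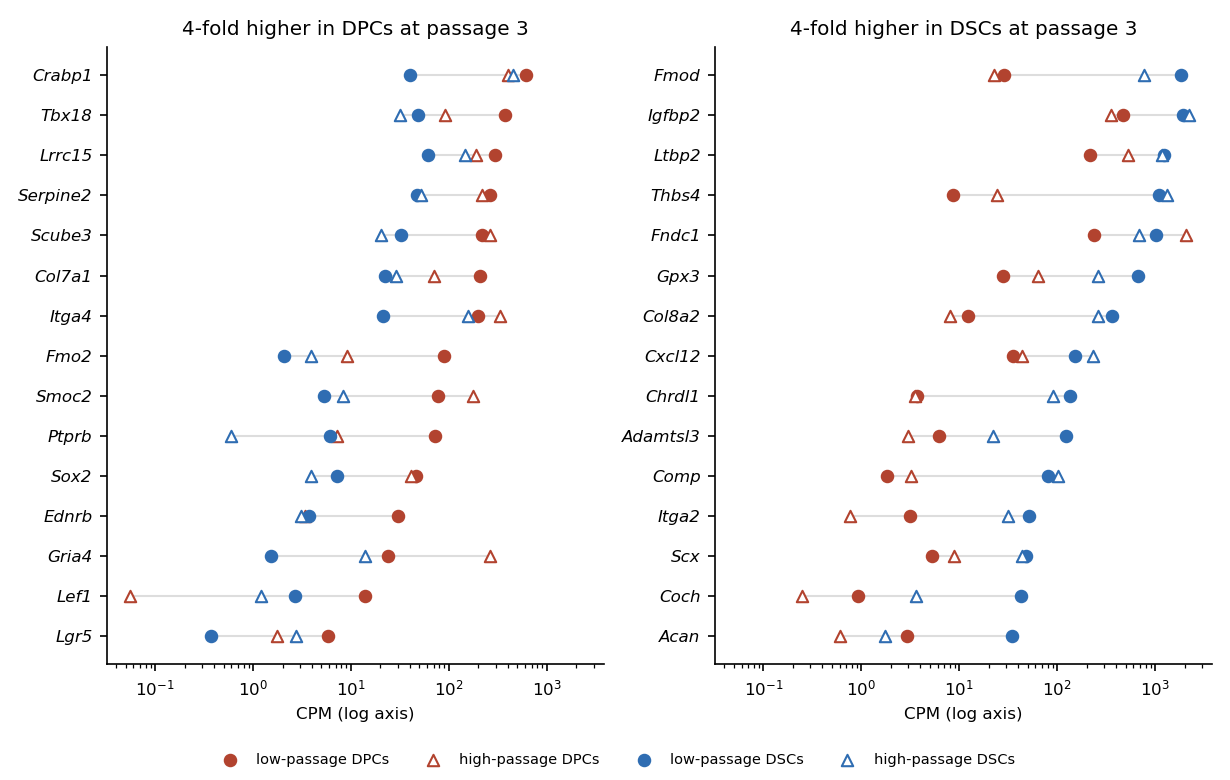
Levels in CPM on a log axis of 15 genes called for DPCs (left) and 15 called for DSCs (right), with filled circles for the low-passage and open triangles for the high-passage libraries, DPCs in red and DSCs in blue. For Thbs4, Fmod, Comp and Chrdl1 both DSC libraries lie far above both DPC libraries, while for Crabp1 and Lgr5 the high-passage libraries lie close together and for Lef1 and Fndc1 the order at passage 9 is the reverse.

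Other leading genes of the DPC library had varied functions. Fmo2, a flavin-containing monooxygenase, was at 89.4 CPM in DPCs and 2.07 CPM in DSCs, a difference of 5.40 (5.11 to 5.78). Gria4, a subunit of AMPA glutamate receptors, was at 23.7 and 1.51 CPM, and its difference at passage 9 was 4.24. The receptor tyrosine phosphatase Ptprb was at 72.8 and 6.15 CPM, with 3.49 at passage 9. These 3 genes kept a positive sign at passage 9, where Fmo2 had a difference of 1.22. Cldn1, a tight junction protein, had 273 and 24 counts, and Ednrb, an endothelin receptor, was at 30.3 and 3.74 CPM. For Cldn1 and Ednrb the passage 9 differences were -0.02 and 0.12. Lrrc15, a membrane protein of activated fibroblasts, was at 295 and 61.2 CPM.

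On the side of DSCs, several enzymes and secreted proteins stood out. Gpx3, a secreted glutathione peroxidase, was at 27.8 CPM in DPCs and 675 CPM in DSCs, a difference of -4.60 (-4.69 to -4.51). Ptgis, prostacyclin synthase, had 22 and 1271 counts, the choline dehydrogenase Chdh 15 and 1050, and the matrix protein Coch 34 and 1609. Differences at passage 9 were -4.59 for Ptgis, -4.60 for Chdh and -3.61 for Coch, so all 3 were again 4-fold higher in DSCs. H1fx, a linker histone variant, had 0 counts in DPCs and 442 in DSCs, at least 142-fold higher. Il17rb, an interleukin receptor chain, had 0 and 248 counts, at least 79.9-fold higher. Ltbp2, a microfibril protein of the latent TGF-beta binding family, was at 216 and 1229 CPM. Fndc1, a fibronectin domain protein, was at 240 and 1014 CPM at passage 3, but at 2055 and 688 CPM at passage 9.

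Among Hox genes, those called for DPCs and those called for DSCs were of different clusters. The filter was passed by 9 of 39 Hox genes, and of these 4 were called for DPCs and 4 for DSCs, against 1.39% and 2.49% of all genes. Since 4 of the 8 had 0 counts in the other library and passed the filter through 1 library alone, these counts were partly fixed by the filter. The 4 called for DPCs were all of the Hoxd cluster, and the 4 called for DSCs were of the Hoxb and Hoxc clusters. Hoxd9 had 142 counts in DPCs and 0 in DSCs, at least 49.0-fold higher, and Hoxd8 had 499 and 55. Hoxd3 had 350 and 32 counts and Hoxd4 had 93 and 18, but these genes share 62.3% and 52.3% of their exonic bases with other genes on the same strand. Hoxc4 had 0 and 33 counts, Hoxc13 had 0 and 31, Hoxb9 had 0 and 21, and Hoxc6 had 6 and 93. All 4 Hoxd genes were past 4-fold in the same direction at passage 9, and so were 3 of the other 4, with Hoxc13 at -0.80. Levels were low, with at most 13.7 CPM in a low-passage library, for Hoxd8 in DPCs.

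Other patterning genes were called in both directions. Of 56 tested homeobox and patterning genes of the head and face, 4 were called for DPCs and 5 for DSCs, against 1.39% and 2.49% of all genes. Besides Tbx18, those called for DPCs were Gsc with 275 and 41 counts, Pax1 with 80 and 12 and Osr2 with 28 and 4. These 3 transcription factors were also 4-fold higher in DPCs at passage 9. Among those called for DSCs were the transcription factors Irx1 at 4.91 and 32.3 CPM, Meis2 at 23.0 and 105 CPM, Mkx at 1.89 and 8.64 CPM, and Foxc2 at 3.35 and 13.6 CPM. None of these 4 was past 4-fold at passage 9.

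Wnt pathway genes separated the cells at several inhibitors and at receptors of R-spondins. Of 9 tested Wnt inhibitors, 3 were called for DPCs and 0 for DSCs, against 1.39% and 2.49% of all genes, so that the 0 is near the background. Beside Sostdc1 they were the secreted Frizzled-related protein Frzb at 7.54 CPM in DPCs and 1.09 CPM in DSCs, and the membrane protein Apcdd1 at 34.8 and 6.63 CPM. The most abundant inhibitor by count, Dkk3, had 14871 and 15438 counts, a difference of -0.00. Lgr5 and Lgr6, related receptors for R-spondins, went opposite ways. Lgr5 had 212 counts in DPCs and 14 in DSCs, a difference of 3.80 (3.19 to 4.87), and Lgr6 had 137 and 888, a difference of -2.63 (-2.92 to -2.39). Among ligands, Wnt11 had 159 and 29 counts and Wnt5a had 4711 and 4400. Axin2, a feedback target of the pathway, had 4 and 34 counts, which left a wide interval of -4.99 to -1.55.

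Genes of the BMP, Notch, FGF and IGF pathways were called in small numbers. Chrdl1, a chordin-like BMP antagonist, was at 3.68 CPM in DPCs and 135 CPM in DSCs, a difference of -5.18 (-5.46 to -4.95), and at 3.57 and 91.5 CPM at passage 9. Of 21 tested BMP ligands and antagonists, Chrdl1 and Nog were called for DSCs, against 2.49% of all genes. Nog, at -2.02 with an interval of -3.36 to -1.21, was at -1.95 when scaled by total counts and so below the threshold. Of 18 BMP receptors and response genes 0 were called, near the 3.89% of all genes. Of 14 tested Notch pathway genes, 1 was called for DPCs and 1 for DSCs, against 1.39% and 2.49% of all genes. The 1 called for DPCs was the ligand Dll1, with 43 and 6 counts. Of the 14, 11 had a positive difference, against 8339 of all 16276 genes. The median of the list was 0.76 at passage 3 and -0.44 at passage 9. Fgf5 had 4 and 51 counts and Fgf16 had 0 and 36, while Fgf7 and Fgf10, the papilla growth factors for the epithelium, had differences of -0.57 and 0.82. Of 15 genes of the IGF axis, 1 was called for DPCs and 3 for DSCs, against 1.39% and 2.49% of all genes. Igfbp2, an IGF-binding protein, was at 473 CPM in DPCs and 1941 CPM in DSCs, and its FPKM of 1297 in DSCs was above those of the other genes named here as 4-fold higher in DSCs. Igfbp6 was at 13.9 and 70.2 CPM and the protease Pappa2, which cleaves IGF-binding proteins, at 10.7 and 44.2 CPM. Scaled by total counts, Igfbp2 was at -1.95 and Pappa2 at -1.96, both below the threshold. Stc1, an inhibitor of such proteases, was at 5.57 and 0.583 CPM, higher in DPCs.

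Of 20 tested chemokine ligands, 2 were called for DPCs and 2 for DSCs, against 1.39% and 2.49% of all genes. Ccl2, which attracts monocytes, was at 156 CPM in DPCs and 34.3 CPM in DSCs, a difference of 2.18 (2.09 to 2.27), and its neighbour Ccl7 was at 112 and 24.0 CPM. Cxcl12, a ligand for Cxcr4, was at 35.2 CPM in DPCs and 151 CPM in DSCs, a difference of -2.10 (-2.19 to -2.01), and Cxcl14 was at 2.88 and 17.5 CPM. All 4 were past 4-fold in the same direction at passage 9. The other 16 ligands were below the threshold, and the median of the list was 0.04. Of 7 tested chemokine receptors 0 were called, near the 3.89% of all genes, with Cxcr4 at 51 and 37 counts. Cxcl13 and Cxcr5, a ligand and its receptor, were at 0 counts in both libraries. The study reported Cxcr5 in cultured low-passage DPCs and DSCs by RT-qPCR and immunostaining, with less at high passage. It measured Cxcl13 in depilated skin rather than in these cultures. Why the counts of Cxcr5 differ from those assays was not tested.

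**Figure D4:**
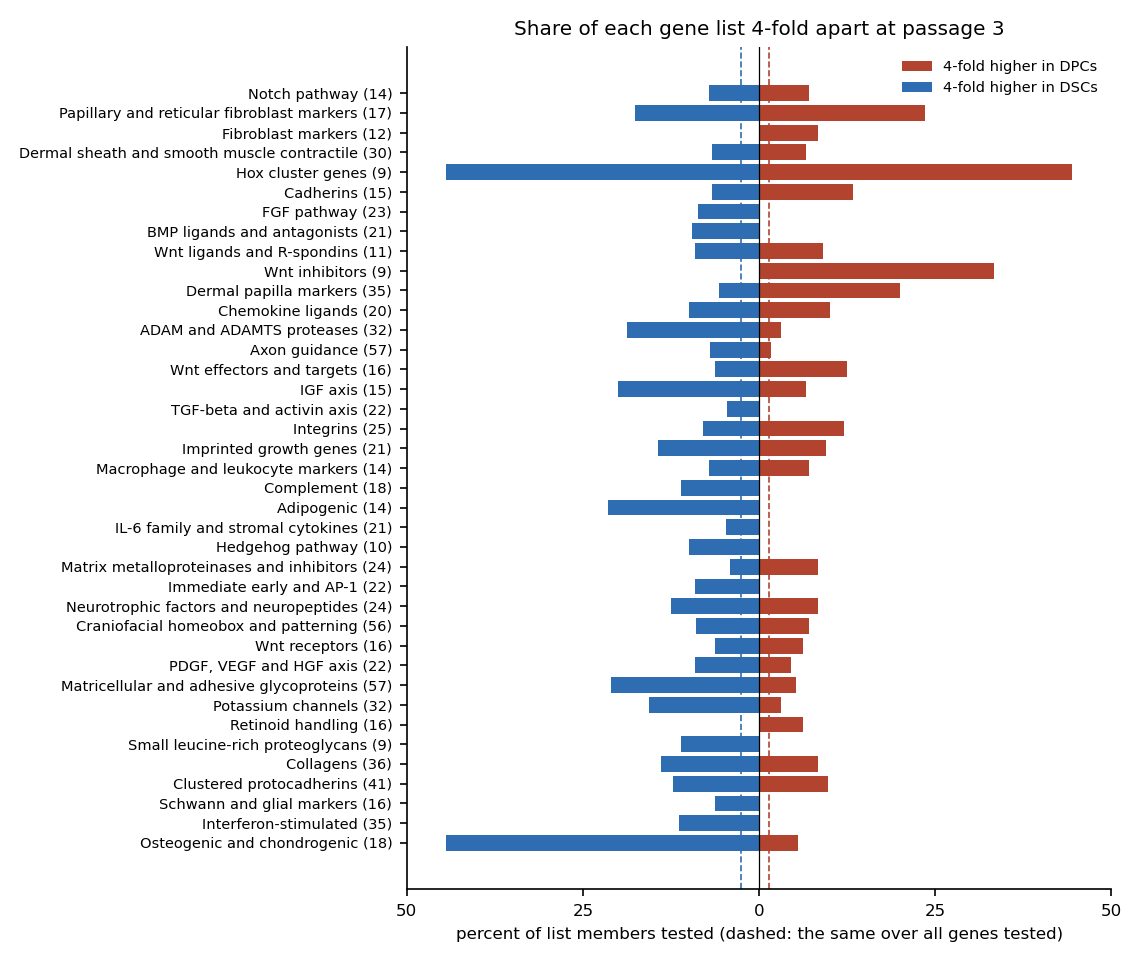
Bars give the percent of the tested members of each gene list (number in brackets) called at 4-fold for DPCs (red, to the right) or for DSCs (blue, to the left), for lists of at least 9 tested members with a called member, ordered by the median difference. Dashed lines mark the same over all genes tested, 1.39% and 2.49%, and the osteogenic and chondrogenic list has 8 of 18 members called for DSCs.

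Housekeeping genes were within 4-fold between the libraries but mostly slightly higher in DPCs. Of 43 S phase genes, 54 genes of G2 and M phase, 80 ribosomal protein genes, 31 genes of glycolysis and hypoxia and 32 of cholesterol and fatty acid synthesis, 0 were called, against 3.89% of all genes. Their medians were 0.15, 0.27, 0.33, 0.09 and 0.44 in that order, against 0.01 over all genes. The difference was positive in 32 of the S phase, 48 of the G2 and M phase, 78 of the ribosomal, 18 of the glycolysis and 27 of the cholesterol genes. Interferon-stimulated genes had a negative difference in 34 of 35 tested genes, against 7937 of all 16276 genes, with a median of -0.98. Of the 35, 0 were called for DPCs and 4 for DSCs, against 1.39% and 2.49% of all genes. The 4 were Ifi44 at 3.98 and 26.6 CPM, Ifit1 at 7.35 and 30.1 CPM, Oas1a with 11 and 68 counts and Oas2 with 9 and 60. Scaled by total counts, Ifit1 was at -1.94 and so below the threshold. The interferon-induced membrane protein Bst2, at 24.5 and 64.2 CPM, stayed below the threshold. Of 22 tested immediate early genes, 0 were called for DPCs and 2 for DSCs, against 1.39% and 2.49% of all genes. The 2 were Fos, at 2.09 and 15.2 CPM, and Egr3.

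Of 21 tested imprinted genes, 2 were called for DPCs and 3 for DSCs, against 1.39% and 2.49% of all genes. Cdkn1c, which encodes the cell cycle inhibitor p57, had 137 counts in DPCs and 9 in DSCs, and the noncoding RNA H19 had 98 and 10. On the side of DSCs were the noncoding RNA Meg3 at 52.9 CPM in DPCs and 237 CPM in DSCs, its neighbour Dlk1, a Notch-like protein that restrains fat cell formation, with 16 and 116 counts, and Zim1 with 20 and 124. Of 14 tested adipogenic genes, 0 were called for DPCs and 3 for DSCs, against 1.39% and 2.49% of all genes. Among the 3, Lpl, lipoprotein lipase, was at 35.5 and 148 CPM and Pparg, the fat cell receptor, at 2.52 and 11.2 CPM. Scaled by total counts, Lpl was at -1.97 and so below the threshold. Adipoq and Plin1 were at 0 counts in both libraries. Of 24 tested neurotrophic and neuropeptide genes, 2 were called for DPCs and 3 for DSCs, against 1.39% and 2.49% of all genes. The neuropeptide gene Vip had 60 and 2 counts, a difference of 4.03 (3.04 to 8.04). The receptors Ret and Gfra2 had 28 and 130 counts and 11 and 91 counts, and both were again 4-fold higher in DSCs at passage 9.

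Markers named in the study for these cells gave mixed values. Cd44 and Itgb1, general mesenchymal surface markers, had differences of 0.16 and -0.01. Ly6a was at 47.5 CPM in DPCs and 26.9 CPM in DSCs, Thy1 at 258 and 589 CPM, and Lepr had 18 and 9 counts. Ptprc, the leukocyte marker CD45, had 70 and 116 counts. Of 17 tested mesenchymal stem cell surface markers 0 were called, which is near the 3.89% of all genes. Of 10 genes that the study named for passage, Axin2 was the one past 4-fold, and the Wnt inhibitor Sfrp1 was at 18.1 and 8.99 CPM, the Notch ligand Jag1 at 80.2 and 32.9 CPM and the protease Mmp3 at 4.01 and 1.67 CPM.

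Some genes listed as markers of other cell types had counts in both libraries, and the summed level of each list was higher in DSCs. Krt5, Krt14 and Krt15 of keratinocytes, Tyr, Tyrp1 and Dct of melanocytes, and the muscle factors Myf5 and Myod1 were at 0 counts in both libraries. Of 18 keratinocyte markers 7 passed the filter, with a summed level of 7.93 CPM in DPCs and 14.9 CPM in DSCs. Of these 7, 0 were called for DPCs and 2 for DSCs, against 1.39% and 2.49% of all genes. The 2 were Dsp and Perp, genes of cell junctions. Of 18 Schwann and glial markers 16 passed the filter, summing to 237 and 265 CPM. A negative difference was held by 15 of the 16, against 7937 of all 16276 genes. Sox10 had 28 and 116 counts, Ngfr 144 and 544, and Scn7a 27 and 131. Of the 16, Scn7a was the 1 called, for DSCs, against 2.49% of all genes. The macrophage and leukocyte list, with 14 of 22 markers past the filter, summed to 171 and 223 CPM, and the skeletal muscle list, with 5 of 16, to 43.9 and 52.7 CPM. The 3 tested melanocyte markers of 10 and 6 of 7 tested endothelial markers had a negative difference, against 7937 of all 16276 genes. Of the 7 endothelial markers, 0 were called for DPCs and 2 for DSCs, against 1.39% and 2.49% of all genes. The 2 were Kdr at 2 and 26 counts and Vwf at 5 and 91. Fewer cells of a type and less RNA per cell cannot be told apart in such bulk libraries. The lists are not exclusive, since Des is on both the contractile and the skeletal muscle list. Whether such cells were present, and their part in the differences above, was not tested.

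For comparison with other libraries, the same genes were read in the passage 9 libraries, where 1.95% of the 16276 genes were past 4-fold on the side of DPCs and 3.81% on that of DSCs, together 5.76%. The passage 3 values of the called genes had chosen them, so a smaller difference in other libraries is no measure of loss with passage. Of the 227 genes called for DPCs at passage 3, 72 (31.7%) were past 4-fold in the same direction at passage 9, 17 in the opposite direction and 138 in neither. Of the 406 called for DSCs, 161 (39.7%) were past 4-fold in the same direction, 13 in the opposite and 232 in neither. The sign was the same for 65.6% of the first and 77.3% of the second, against 46.4% positive and 53.4% negative over all genes tested. The median difference of the DPC genes was 2.71 at passage 3 and 0.86 at passage 9, and that of the DSC genes -2.77 and -1.61. Scube3, Sox2, Gria4, Smoc2 and the Hoxd genes were among those apart in both pairs of libraries on the side of DPCs, and Thbs4, Fmod, Comp, Col8a2 and Chrdl1 on the side of DSCs. Crabp1, Lgr5, Cldn1 and Ednrb were within 2-fold at passage 9.

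**Figure D5:**
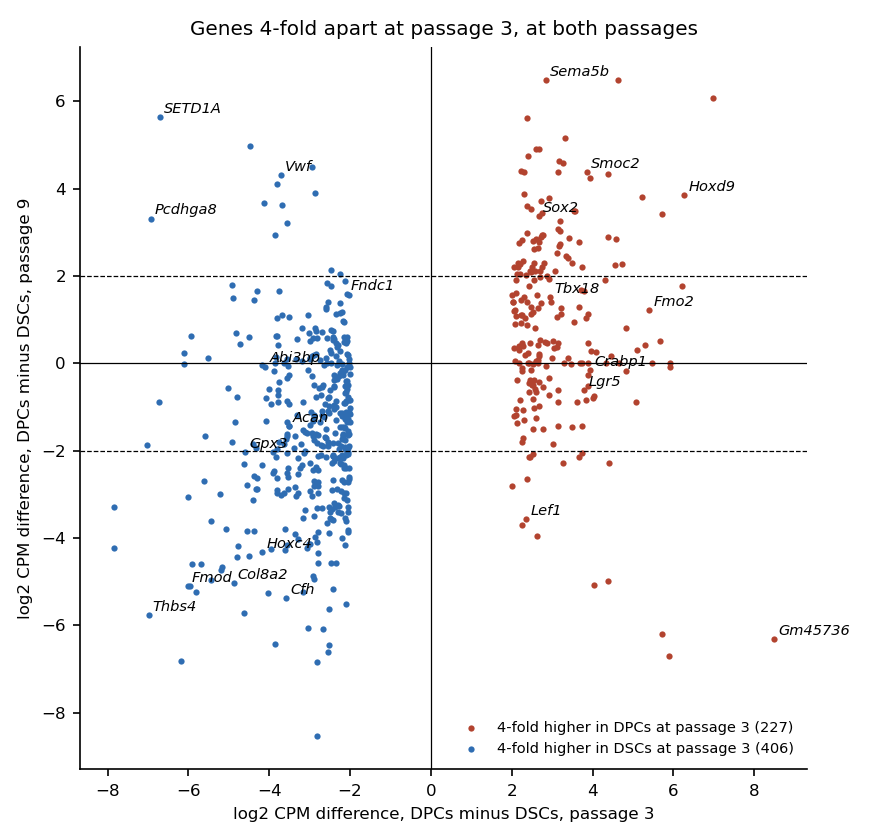
Each point is 1 of the 633 genes called at passage 3, with the log2 CPM difference, DPCs minus DSCs, at passage 3 on the horizontal axis and at passage 9 on the vertical axis, red for the 227 higher in DPCs and blue for the 406 higher in DSCs. Dashed lines mark 4-fold at passage 9, and the 30 genes past it in the opposite direction include Lef1, Vwf and Pcdhga8.

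Some large differences lay at genes whose reads could not be assigned with certainty. Of the genes called, 21 of 227 (9.25%) and 24 of 406 (5.91%) shared at least 50% of their exonic bases with another gene on the same strand, against 1.76% of all genes tested. Gm28036, with 3761 counts in DPCs and 62 in DSCs, and SETD1A, with 4 and 632, share 100% of their exonic bases in this way. The clustered protocadherins, cell adhesion genes that share their last exons within a cluster, had 4 of 41 tested members called for DPCs and 5 for DSCs, against 1.39% and 2.49% of all genes. Pcdhga2 was at 302 and 8.77 CPM and Pcdhga8 had 8 and 1245 counts, and they share 45.1% and 47.1% of their exonic bases. The split of reads among such genes may depend on the counting program, which was not stated.

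To show sequence beside the leading genes, the 250 bases before the RefSeq gene start (GRCm38.p6) were read for genes of each side, with each sequence 5′ to 3′ on the strand of the gene and searched motifs in capitals. The motifs were the CArG box, the TCF/LEF site ATCAAAG, the E-box CAGCTG and the TATA box TATAAA, on both strands, and none of them overlapped another in the sequences shown. Crabp1 (chr9:54764498-54764747, plus strand) and Fmod (chr1:134037004-134037253, plus strand) are shown as the leading genes of each side, and hold none of these letters. Itga4 (chr2:79255176-79255425, plus strand) holds an E-box that begins 125 bases before the start, and Wnt11 (chr7:98834862-98835111, plus strand) a TCF/LEF site 51 bases and a TATA box 29 bases before it. Cxcl12 (chr6:117168285-117168534, plus strand) holds a TCF/LEF site 163 bases before the start, and Acan (chr7:79052976-79053225, plus strand) an E-box 179 bases before it. The first 3 are of genes higher in DPCs and the last 3 of genes higher in DSCs.
Crabp1: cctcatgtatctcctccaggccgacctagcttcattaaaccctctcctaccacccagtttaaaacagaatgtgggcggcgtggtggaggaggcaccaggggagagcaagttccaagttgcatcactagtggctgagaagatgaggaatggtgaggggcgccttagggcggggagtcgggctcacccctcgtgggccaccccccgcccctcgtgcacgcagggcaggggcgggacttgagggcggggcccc
Itga4: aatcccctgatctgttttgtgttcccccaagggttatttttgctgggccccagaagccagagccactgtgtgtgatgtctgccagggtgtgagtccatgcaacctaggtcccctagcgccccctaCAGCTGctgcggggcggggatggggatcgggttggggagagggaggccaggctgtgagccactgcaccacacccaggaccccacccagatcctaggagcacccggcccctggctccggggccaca
Wnt11: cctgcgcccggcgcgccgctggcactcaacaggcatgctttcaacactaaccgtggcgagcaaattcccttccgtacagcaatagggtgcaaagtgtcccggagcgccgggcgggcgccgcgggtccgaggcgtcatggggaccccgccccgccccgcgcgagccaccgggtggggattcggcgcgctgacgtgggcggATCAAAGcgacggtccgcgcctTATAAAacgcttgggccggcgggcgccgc
Fmod: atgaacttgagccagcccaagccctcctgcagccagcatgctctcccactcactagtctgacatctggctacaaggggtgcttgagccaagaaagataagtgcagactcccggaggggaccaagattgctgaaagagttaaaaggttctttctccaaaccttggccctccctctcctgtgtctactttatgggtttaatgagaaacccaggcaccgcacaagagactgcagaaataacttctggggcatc
Cxcl12: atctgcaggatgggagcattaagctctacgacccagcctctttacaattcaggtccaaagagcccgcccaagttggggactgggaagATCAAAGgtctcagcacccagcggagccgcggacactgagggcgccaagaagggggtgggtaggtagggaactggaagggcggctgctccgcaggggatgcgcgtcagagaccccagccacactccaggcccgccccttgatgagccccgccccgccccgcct
Acan: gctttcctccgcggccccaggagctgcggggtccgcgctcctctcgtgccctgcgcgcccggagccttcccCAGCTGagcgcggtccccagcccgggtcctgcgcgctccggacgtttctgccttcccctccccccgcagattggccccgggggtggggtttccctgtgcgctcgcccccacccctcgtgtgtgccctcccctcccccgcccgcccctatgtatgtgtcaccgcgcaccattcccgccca

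Over 10733 promoters of tested genes, 11.6% held the E-box, against 11.6% of 129 promoters of genes called for DPCs and 17.1% of 251 called for DSCs. The TATA box was in 6.22% of all, 8.53% of the DPC set and 10.4% of the DSC set. The TCF/LEF site was in 2.20%, 3.10% and 2.39%, and the CArG box in 1.16%, 2.33% and 1.59%. A match of letters is a description and was not tested for binding.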

How the data were processed

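RNA of cultured DPCs and DSCs was sequenced at passage 3 and passage 9, with 1 library each. The labels name a TruSeq kit and total RNA, while the study's methods name poly-T selection, a NEBNext kit and paired-end reads. The authors deposited raw counts per gene, not normalized, and FPKM, in which they had scaled each gene by its transcript's length and by the mapped fragments. The submitters' processing notes name Bowtie 0.12.2 and builds mm8 and mm9 without a role. The counting program, its annotation and its use of strand were not given in the sources used here. Of 51826 gene IDs, 51633 were in GENCODE M21 (GRCm38), and 94.1% of these had the same position, so GRCm38 coordinates are given. A count of 2 was held by 1339 genes of the DPC library and a count of 3 by 583, and by 1340 and 558 genes of the DSC library, as if both mates were counted.

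Counts were scaled with TMM factors over the 4 libraries (edgeR 4.0.16, R 4.3.3) and log2 CPM took a prior count of 2. Genes needed a mean count of at least 10 over the 2 low-passage libraries. No model was fitted, since there was 1 library per group. Counting intervals are 95% exact Clopper-Pearson intervals of the share that 1 library gave to a gene's reads in both. PCR copies and cultures add spread that intervals and floors do not cover. The interval and call code was tested on simulated data. FPKM served for levels between genes and as an alternative, with a pseudocount of 0.1 or 1. Shared exonic bases came from bedtools 2.31.1. The 55 gene lists and the comparison were chosen with earlier results of these data known.

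Named genes were the 12 largest differences per direction among protein-coding genes with a mean count of at least 100, the 6 per direction largest in CPM, the 4 called members of each list with the largest difference, any member of a list of 5 or fewer, the markers and passage genes of the study, the first markers of other cell types, and the 3 largest differences that were opposite at passage 9. Other list members were named after their values were seen. Alternatives were other scalings (DESeq2 1.42.0 size factors among them), prior counts and filters, FPKM, halved counts and genes without overlap.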

Additional observations from a re-analysis of the deposited data

Results flagged for a closer look

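Genes were flagged where the difference between DPCs and DSCs was past 4-fold in opposite directions at passage 3 and passage 9. This change with passage was not tested, since each value rests on 1 library per group. Over all genes tested, 30 of the 633 genes called at passage 3 did so, and in 19 of the 30 both libraries of a passage had under 100 counts.

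Lef1, the partner of beta-catenin, had 508 counts in DPCs and 101 in DSCs at passage 3, and 2 and 55 counts at passage 9, so the log2 difference at passage 3 minus that at passage 9 was 5.93. Elastin (Eln) had 4358, 466, 38 and 240 counts in the same order, a change of 5.55. Vwf, an endothelial glycoprotein, had 5, 91, 194 and 10 counts, a change of -8.02.

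The proteases Adamts16, with 22, 0, 0 and 8 counts, and Adamts3, with 0, 26, 259 and 40, had changes of 5.82 and -6.80. Gm45736, a gene model absent from GENCODE M21, had 670, 0, 4 and 579 counts, a change of 14.80, and at passage 3 it was at least 231-fold higher in DPCs. The changes of these 3 genes depend on the prior count and are no bound, because a library of each was at 0. Other changes here that rest on few counts in a library also depend on the prior count in size. For Lef1, with 2 counts in high-passage DPCs, the interval at passage 9 was -7.54 to -2.54. SETD1A, which shares 100% of its exonic bases with another gene on the strand, had 4, 632, 367 and 7 counts, a change of -12.33. The protocadherins Pcdhga8 and Pcdhgb8, which share 47.1% and 45.9% of their exonic bases with other genes, had changes of -10.24 and 9.13.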

How the results depend on the processing

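No paired analysis was possible because each group held 1 library and the labels gave no replicate numbers, and for the same reason no replicate could be left out. The main counts were 227 genes called for DPCs, 406 for DSCs, 233 past 4-fold in the same direction at passage 9 and 30 in the opposite. With total counts, upper-quartile factors, DESeq2 size factors or TMM factors from the low-passage libraries alone, these counts stayed within 1.5 times, and the median over all genes lay between -0.01 and 0.10. In the same order, a prior count of 10 gave 141, 257, 140 and 17, a mean count of at least 100 gave 90, 171, 108 and 11, genes without an overlapping gene gave 78, 171, 102 and 8, and FPKM with a pseudocount of 1 gave 45, 52, 32 and 3. FPKM with a pseudocount of 0.1 gave 228 for DSCs, 128 and 16 for the last 3. With no filter but a count above 0 in 1 of the 2 libraries there were 557, 762 and, opposite at passage 9, 81. A prior count of 0.5 gave 49 opposite genes and halved counts gave 18. With the rule, chosen after seeing the data, that the whole counting interval be past 4-fold, 137, 235 and 155 remained of the first 3 counts by the rule's construction. Of 123 named genes called, 41 were past 4-fold in every setting that kept them and 0 changed sign. The medians of the lists for ADAM and ADAMTS proteases, axon guidance and laminins changed sign with the scaling, and those of the other 52 lists did not. The limits are 1 library per group, the possible counting of both mates, and the uncertain split of reads between overlapping genes.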
